A study of Populus cathayana with 4 samples.

Results

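Leaves of female Populus cathayana grown for 100 days under reduced solar UV-B were compared with leaves of males grown beside them under the same reduced UV-B. The female group and the male group had 1 library each. Another pair of libraries, from females and from males left under ambient solar UV-B, serves here only to ask whether a sex difference recurred. The plants were potted cuttings, the fourth fully expanded leaves were sampled, and RNA from 9 plants was pooled in equal parts for each library, per the labels' protocols. The labels speak of 3 biological replicates of the extraction and list 1 library a group, so no value has a replicate error. Tests of a single pair compare libraries and carry counting error only. Differences between the sexes, between the genotypes that went into each pool and between the flow cell lanes cannot be told apart. Of 19100 transcripts in the count table, the 10741 with at least 10 counts summed over the 4 libraries were tested. The minimum was met exactly by 392 transcripts and missed by a single count by 484.

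Poplars carry male and female flowers on separate trees, and in several species the sex-determining region lies on chromosome 19. Male and female plants of such species often differ in growth, in phenolic and other defence compounds and in nutrient use, also in leaves that bear no flowers. In tag sequencing a messenger RNA is represented by a single short tag beside a restriction site, so counts do not depend on transcript length. In pooled leaves, fewer cells of a type and less RNA per cell cannot be told apart. Gene descriptions are those of the best database hit in the authors' table. Transcripts whose hit names no protein are treated as having no description and are named by identifier only, and near-identical family members can share tags.

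The listed transcripts held 660483 counts in females and 636702 in males under reduced UV-B, which is 15.0% and 14.9% of library totals that differed by a factor of 1.03. Under ambient UV-B they held 624926 in females and 722533 in males, or 14.4% and 17.2%. In the 4 libraries 5431 to 7001 transcripts were listed at 0, and since no count of 1 appears anywhere, a 0 may conceal a single tag. Leaf markers were abundant. The 27 tested photosystem and antenna transcripts summed to 8449 CPM, the count scaled to the library total, in females and 7594 CPM in males. No description matched the word pattern of the flower and anther list, and the single guard cell marker, a FAMA-like factor (Potri.001G314400.1), had 7 and 10 counts. Only 1693 of the 10741 tested transcripts (15.8%) had a description. Lists on descriptions therefore cover a family only in part, and an empty list does not show absence.

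A transcript was called when an exact binomial test of its 2 counts, given the library totals, reached an adjusted p under 0.001 with CPM at least 2-fold apart. Under reduced UV-B 500 transcripts were called higher in females (4.66% of those tested) and 634 lower (5.9%), 1134 in all (10.6%). The median log2 ratio of females over males was 1.78 among those called higher in females and -2.26 among those called lower, and 66 and 141 of them differed at least 8-fold. Ratios thus lay farther from 1 on the lower side. The exact 95% counting interval lay wholly beyond 2-fold for 293 transcripts higher in females and for 455 lower. Called transcripts were a sizeable part of the listed RNA: those higher in females held 20.4% of the listed counts in females and 7.83% in males, and those lower in females held 4.48% in females and 17.2% in males. Over all tested transcripts the median log2 ratio was -0.04. Scaling by TMM factors moved every ratio by -0.02 and gave 485 higher (4.52%) and 644 lower (6%), and DESeq2 size factors gave 478 (4.45%) and 659 (6.14%). These counts assume no variation between pools. If pools were taken to vary with a coefficient of variation of 0.3, calls came to 28 higher (0.261%) and 57 lower (0.531%), 0.791% in all. A fit of the 4 libraries with sex and UV-B level as terms gave a common coefficient of variation of 0.328. With 1 library a group, the residual of that fit holds the sex by UV-B difference together with any variation between pools. The value therefore measures neither of them alone.

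**Figure D1:**
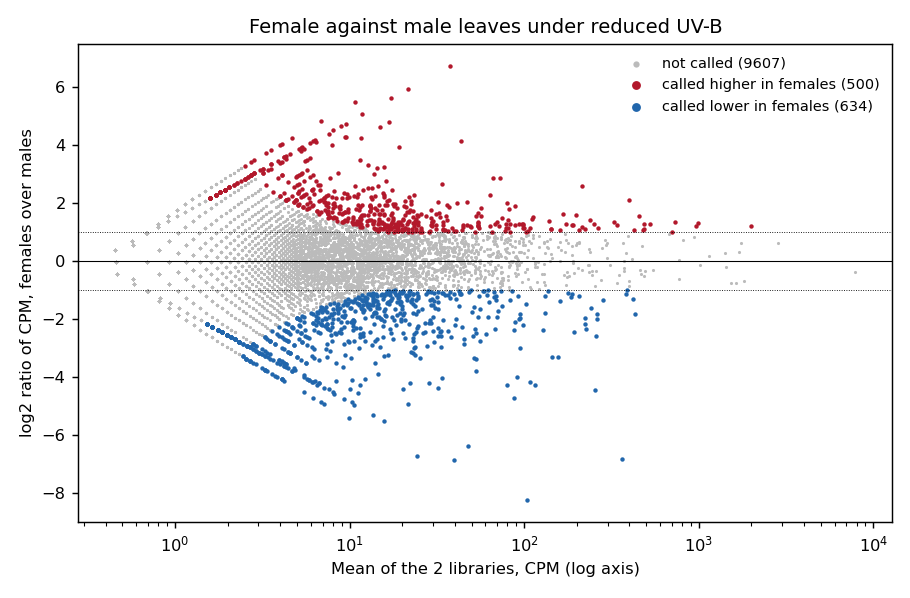
Log2 ratio of CPM, females over males under reduced UV-B, against the mean CPM of the 2 libraries on a log axis, 1 point per tested transcript. The 500 transcripts called higher in females and the 634 called lower are coloured, dotted lines mark 2-fold, and transcripts listed at 0 in a library are drawn at the bound set by 3 counts.

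Calls were more frequent at higher counts. Of the 4842 transcripts whose 2 counts summed to less than 20, 1.82% were called, and this share was 22.2% among 2398 with 50 to 200 counts and 36.8% among 152 with at least 1000. A transcript at low counts that was not called is therefore not shown to be alike in the sexes. A list of abundant transcripts can for the same reason exceed the shares over all transcripts.

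The sex differences were set beside the ambient pair, which shares no library with the reduced pair. Under ambient UV-B 393 transcripts were called higher in females (3.66%) and 826 lower (7.69%). That split depended on scaling: with TMM factors it was 551 higher and 624 lower. At both UV-B levels 182 transcripts were called higher in females (1.69% of those tested) and 347 lower (3.23%). These were 36.4% of the 500 calls under reduced UV-B and 46.3% of the 393 under ambient UV-B for the higher direction, and 54.7% of 634 and 42.0% of 826 for the lower. These shares also depended on scaling. With TMM factors 221 transcripts were called higher in females at both levels, of 485 under reduced UV-B, and 308 lower, of 644. Of the 500 transcripts higher in females 445 also had a ratio above 1 under ambient UV-B (89.0%), and of the 634 lower in females 588 had one below 1 (92.7%), where 65.4% of all tested transcripts had the same sign in both pairs. Among transcripts with at least 100 counts over the 4 libraries this last share was 69.6%. Neither share is matched to the called transcripts in size of ratio. The median log2 ratio of the higher calls was 1.76 under reduced and 1.0 under ambient UV-B, and that of the lower calls was -2.29 and -1.62. Across 3478 transcripts with at least 100 counts over the 4 libraries, the log2 ratios of the pairs had a Pearson correlation of 0.69 and a Spearman correlation of 0.62, as a description across transcripts.

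**Figure D2:**
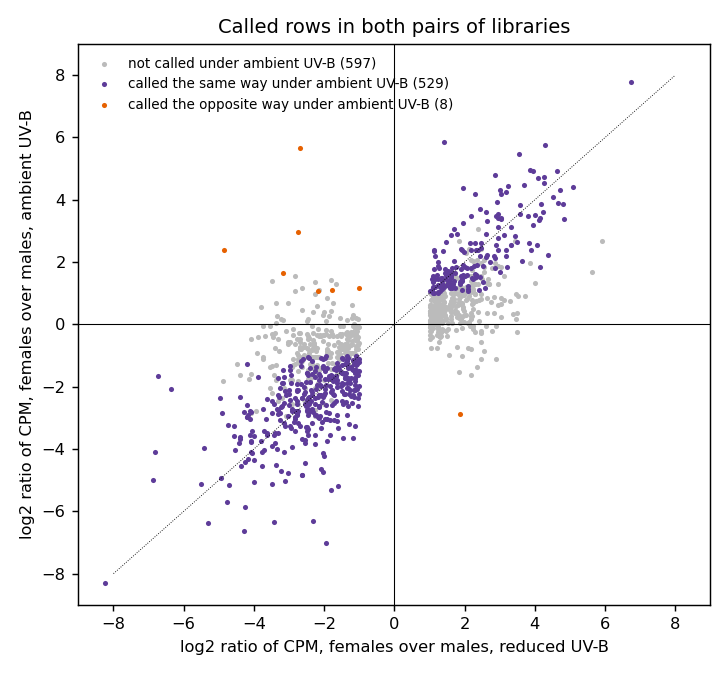
Log2 ratio of females over males under ambient UV-B against that under reduced UV-B, for the 1134 transcripts called under reduced UV-B. Coloured by their call under ambient UV-B, 529 were called in the same direction and 8 in the opposite one, and the dotted line marks equal ratios.

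The female-to-male ratio itself differed between the UV-B levels, by an exact conditional test of the 4 counts, for 217 transcripts with a higher ratio under reduced UV-B (2.02%) and 111 with a lower one (1.03%). This split rests on the header totals. TMM factors moved every ambient log2 ratio by 0.187, and with them 283 transcripts were called in place of 328. Calls in opposite directions were few, 1 among the transcripts higher and 7 among those lower in females under reduced UV-B. Described members are the tau class glutathione transferase GSTU20 (Potri.008G175000.1), which had 21 counts in females and 131 in males under reduced UV-B, and 155 in females and 3 in males under ambient UV-B. Transcript Potri.006G253500.1, for an RNA-dependent RNA polymerase that makes double-stranded RNA in gene silencing, had 3 counts in females and 85 in males under reduced UV-B, and 38 and 7 under ambient UV-B. A cytochrome P450 (Potri.001G270600.1) had 11 and 48 counts under reduced UV-B, and 106 and 49 under ambient UV-B. In each of these the female library was below the male under reduced UV-B and above it under ambient UV-B.

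The ends of the ratio scale are given here for described transcripts whose higher library held 50 counts or more. A Kunitz-type trypsin inhibitor (Potri.001G309900.1) lay lowest, with 2 counts in females and 207 in males under reduced UV-B and 53 and 163 under ambient UV-B. Its log2 ratio was -6.73 (interval -9.79 to -4.86) under reduced UV-B and -1.66 under ambient UV-B. A cytochrome P450 (Potri.007G084400.1) had 2 counts in females and 83 in males (-5.41, interval -8.48 to -3.51). An anthranilate N-benzoyltransferase-like protein (Potri.007G003800.1), of a family that joins aromatic acids to amines and alcohols, had 28 counts in females and 726 in males (-4.73, interval -5.33 to -4.19), and 83 and 763 under ambient UV-B. This was the most abundant of the 12 lowest transcripts in males. A transcript described as 1-aminocyclopropane-1-carboxylate (Potri.002G224100.1), the name of the ethylene precursor, had 4 counts in females and 82 in males. At the other end, a ubiquitin extension protein (Potri.001G025300.1) had 81 counts in females and 3 in males under reduced UV-B, and 61 and 0 under ambient UV-B, with a log2 ratio of 4.72 (interval 3.12 to 7.03). A G-type lectin receptor kinase-like protein (Potri.002G086500.1) had 52 counts in females and 0 in males, at least 16.9-fold higher, and 161 and 6 under ambient UV-B. A beta tubulin (Potri.001G464400.1), a building block of microtubules, had 95 counts in females and 16 in males (2.53, interval 1.76 to 3.40). An ABC transporter of the retinal flippase type (Potri.015G063500.1) had 65 and 14 counts (2.18, interval 1.33 to 3.13). These 4 transcripts were called higher in females at both UV-B levels.

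**Figure D3:**
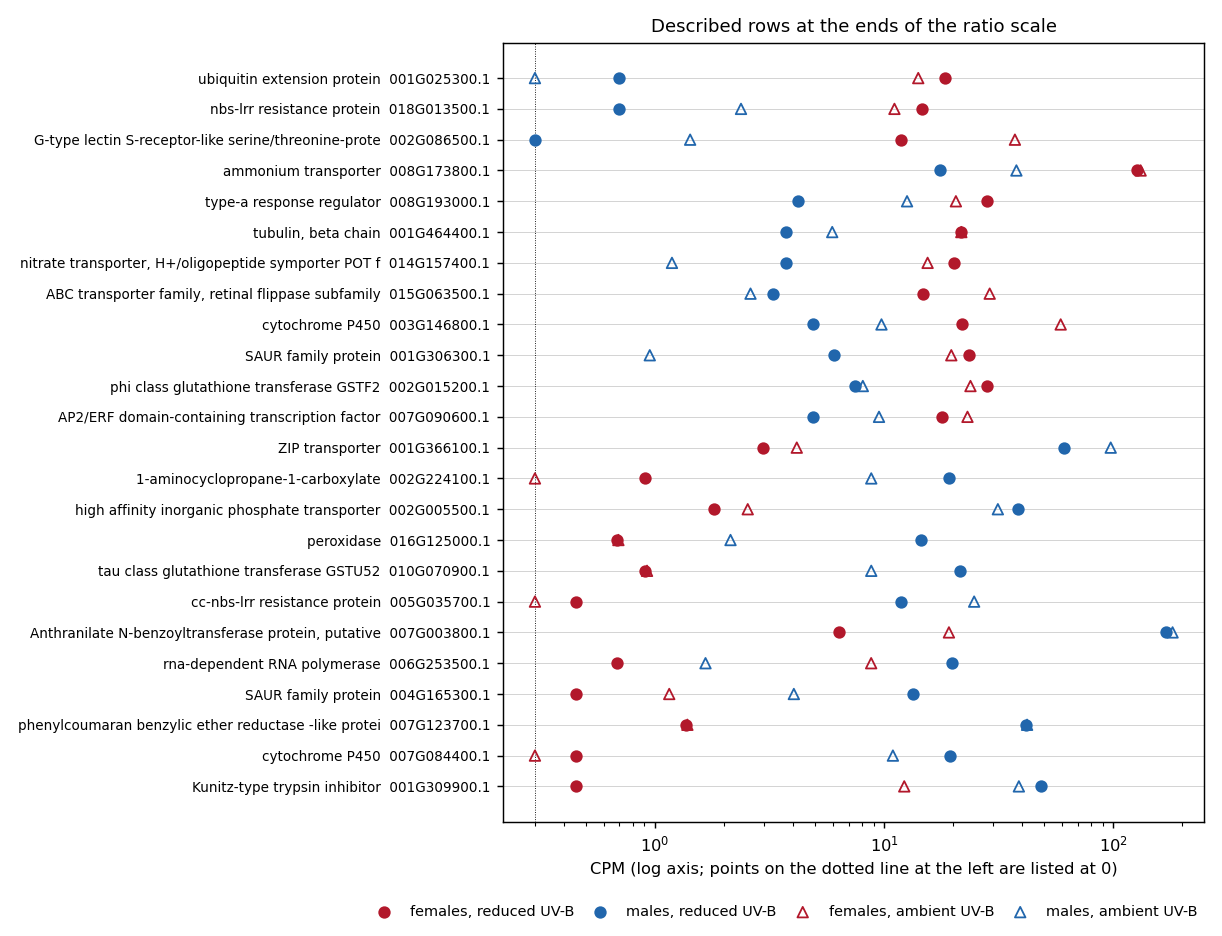
CPM in the 4 libraries, on a log axis, of the 12 described transcripts with the highest and the 12 with the lowest ratio under reduced UV-B. Filled circles are reduced UV-B and open triangles ambient UV-B, red for females and blue for males, and symbols on the dotted line are listed at 0. In all but the RNA-dependent RNA polymerase the female and male symbols keep the same order at both UV-B levels.

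Protease inhibitors were low in females. Of 10 tested Kunitz and other protease inhibitors, which block the digestive proteases of insects, 0 were called higher and 5 lower, with 4.66% and 5.9% over all tested transcripts, and the median log2 ratio was -2.12. The same shares are the background for the lists that follow. Besides the transcript at the end of the scale, the inhibitor Potri.019G124400.2 had 76 counts in females and 372 in males (-2.33, interval -2.70 to -1.97), and 26 and 2014 under ambient UV-B. KPI-C1 (Potri.019G124600.1), the most abundant member over these 2 libraries, had 129 counts in females and 476 in males (-1.92, interval -2.21 to -1.64), and again 129 in females with 1033 in males under ambient UV-B. The remaining called members, Potri.019G121800.1 and Potri.019G088200.1, had 4 and 0 counts in females and 25 and 17 in males. Of the 5 called transcripts 4 lie on chromosome 19 by their identifiers, and related copies there may share tags. A single member had a ratio above 1, Potri.004G000400.1 with 15 counts in females and 6 in males, and 3 of the 5 were also called lower under ambient UV-B.

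Other defence proteins followed. Of 8 tested members 0 were called higher and 4 lower in females, with a median log2 ratio of -1.63, and all 4 were also called lower under ambient UV-B. A thaumatin-like pathogenesis-related protein (Potri.001G102400.1), of a family that attacks fungal membranes, had 92 counts in females and 716 in males (-3.0, interval -3.33 to -2.68), and 147 and 869 under ambient UV-B. Polyphenol oxidases make protein-binding quinones from phenolics in damaged leaves. Transcript Potri.001G388900.1 of this enzyme had 123 counts in females and 626 in males (-2.38, interval -2.67 to -2.10), and Potri.011G047300.1 had 10 and 57. Chitinase 3 (Potri.006G188400.1), which cuts fungal cell walls, had 11 counts in females and 55 in males. Another polyphenol oxidase (Potri.011G108300.1) was not called, with 29 counts in females and 13 in males under reduced UV-B, and 5 and 126 under ambient UV-B. The pattern for this list missed 2 transcripts spelled beta-1,3 glucanase, which were chosen after their values were seen. The more abundant of them (Potri.016G057400.1), also a fungal cell wall hydrolase, had 149 counts in females and 617 in males (-2.09, interval -2.35 to -1.83), and 88 and 416 under ambient UV-B. The other, Potri.016G057600.1, had 11 counts in females and 73 in males.

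The immune receptor list, which takes NBS-LRR, other leucine-rich repeat and disease resistance descriptions, did not share a direction. NBS-LRR proteins detect pathogen effectors inside the cell. Of 81 tested members of the list 4 were called higher and 4 lower in females, each 4.94%, close to the 4.66% and 5.9% over all transcripts. Several differed almost completely. The receptor Potri.018G013500.1 had 64 counts in females and 3 in males (4.38, interval 2.77 to 6.69), and Potri.019G112600.1 had 46 and 0, followed by 16 and 0 under ambient UV-B. In the opposite direction Potri.005G035700.1 had 2 counts in females and 51 in males (-4.71, interval -7.79 to -2.78), and 0 and 104 under ambient UV-B. At both UV-B levels 3 members were called higher and 3 lower in females.

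Carbohydrate-binding proteins, a gene ontology group of lectins and lectin receptor kinases, had 3 of 98 members called higher (3.06%) and 15 lower (15.3%) in females. Over all transcripts these shares were 4.66% and 5.9%, and the median log2 ratio of the group was -0.52. Of its called members, 3 and 11 recurred under ambient UV-B. The lowest ratio of all tested transcripts was in this group. Potri.T084600.1 had 0 counts in females and 889 in males, at least 304-fold lower in females, and 4 and 1231 under ambient UV-B. Potri.019G007700.1 went the other way, with 97 counts in females and 5 in males (4.24), and 112 and 9 under ambient UV-B.

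Phenylpropanoid metabolism turns phenylalanine into flavonoids, lignin, lignans and related phenolics. Of 20 tested flavonoid and phenylpropanoid enzymes 1 was called higher (5%) and 5 lower (25%) in females, beside 4.66% and 5.9% over all transcripts. The median log2 ratio of these enzymes was -1.04, and 4 of the 5 recurred under ambient UV-B. Phenylalanine ammonia-lyase stands at the entry. Its transcript Potri.016G091100.1 had 242 counts in females and 468 in males (-0.99), just short of the 2-fold limit, and was called with TMM factors. A second one, Potri.006G126800.1, is spelled differently in the table and was chosen after its values were seen. It had 396 counts in females and 1513 in males (-1.97, interval -2.13 to -1.81), and 215 and 711 under ambient UV-B. Further along the pathway, 4-coumarate:CoA ligase (Potri.003G188500.1) had 0 counts in females and 14 in males. Chalcone synthase builds the flavonoid skeleton. Transcripts Potri.003G176800.1 and Potri.001G051500.1 of this enzyme had 28 and 13 counts in females and 93 and 50 in males, and both were called lower under ambient UV-B too. Anthocyanidin synthase (Potri.001G113100.1) had 0 counts in females and 25 in males. The single member called higher was a flavonoid O-methyltransferase-related transcript (Potri.019G093100.1) with 27 counts in females and 5 in males.

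Enzymes that feed this pathway were looked at after these values were seen. Of 10 tested aromatic amino acid and methyl donor enzymes 0 were called higher and 3 lower in females, and the 3 were also called lower under ambient UV-B. S-adenosylmethionine synthetase 2 (Potri.013G004100.1), which makes the methyl donor of lignin and flavonoid methylation, had 176 counts in females and 403 in males (-1.23, interval -1.5 to -0.97). Arogenate or prephenate dehydratase (Potri.004G188100.1), of phenylalanine synthesis, had 60 and 130 counts (-1.15). The enzyme of the first shikimate step (Potri.002G099200.1), described as 2-dehydro-3-deoxyphosphoheptonate aldolase, had 122 and 242 (-1.02, interval -1.35 to -0.70). Of 34 transcripts with a secondary metabolism ontology term, 0 were called higher and 6 lower.

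Lignin and lignan enzymes had 1 of 23 members called higher (4.35%) and 4 lower (17.4%), beside 4.66% and 5.9% over all transcripts. Their median log2 ratio was -0.95. A phenylcoumaran benzylic ether reductase-like protein (Potri.007G123700.1), of a family that reduces lignan-type phenylpropanoid dimers, had 6 counts in females and 178 in males under reduced UV-B, and 6 and 177 under ambient UV-B. Its log2 ratio was -4.93 (interval -6.39 to -3.78). Reductase 2 of this family (Potri.009G118300.1) had 15 counts in females and 75 in males, while the related Potri.001G133200.1 had 49 and 14 and was called higher. Transcript Potri.001G304800.1, for the caffeoyl-CoA O-methyltransferase of the lignin pathway, had 63 counts in females and 150 in males (-1.29, interval -1.74 to -0.85). Of 11 tested xylem and secondary wall markers, 10 had a ratio below 1 and 0 were called, and they summed to 31.2 CPM in females and 54.2 CPM in males. Laccases made up 7 of the 11, all with a ratio below 1, and laccase 90c (Potri.010G183600.1) was at 0 in females and at 8 counts in males. The part of vascular tissue in these differences was not tested.

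Glutathione transferases, which attach glutathione to reactive and toxic compounds, had 2 of 16 members called higher and 6 lower in females. Among 10 of the tau class 0 were higher and 5 lower, and among 4 of the phi class 2 were higher and 1 lower, a division by class made after the values were seen and not tested. Under ambient UV-B the tau class had 1 higher and 2 lower, with a median log2 ratio of -0.03. Tau member GSTU30 (Potri.011G140800.1) had 258 counts in females and 868 in males (-1.79, interval -1.99 to -1.58), and 312 and 1034 under ambient UV-B. GSTU52 (Potri.010G070900.1) had 4 and 92 counts (-4.56, interval -6.47 to -3.15). Phi member GSTF1 (Potri.002G015100.1), the most abundant of the family, had 1516 counts in females and 551 in males (1.42, interval 1.28 to 1.57), and GSTF2 (Potri.002G015200.1) had 124 and 32 (1.92, interval 1.35 to 2.53). GSTF4 (Potri.T035400.1) had 394 counts in females and 988 in males under reduced UV-B (-1.36, interval -1.53 to -1.19), and 525 and 603 under ambient UV-B.

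Peroxide-removing enzymes had 0 of 8 members called higher and 3 lower (37.5%), beside 4.66% and 5.9% over all transcripts. A peroxidase (Potri.016G125000.1) had 3 counts in females and 62 in males (-4.41, interval -6.72 to -2.79). The chloroplast 2-cys peroxiredoxin (Potri.016G072100.1) had 215 counts in females and 425 in males (-1.02, interval -1.26 to -0.78), and 78 and 357 under ambient UV-B. The most abundant member, a type II peroxiredoxin (Potri.018G083500.1), was not called, with 694 counts in females and 479 in males. By the antioxidant ontology term, 5 of 54 were called higher (9.26%) and 14 lower (25.9%).

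Thioredoxins and glutaredoxins, small thiol oxidoreductases, had 2 of 30 called higher (6.67%) and 1 lower (3.33%), near the shares over all transcripts. The glutaredoxins Potri.014G134300.1 and Potri.008G214800.1 had 125 and 41 counts in females and 55 and 5 in males, and both were called higher under ambient UV-B too. Thioredoxin h (Potri.017G076700.1) had 16 counts in females and 87 in males (-2.48, interval -3.35 to -1.70). Potri.011G118900.1 encodes metallothionein 3a, a cysteine-rich metal-binding protein, and had 1173 counts in females and 486 in males (1.23, interval 1.08 to 1.39). Under ambient UV-B it had 4457 in females and 2104 in males, so that the female level was the higher at both UV-B levels.

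Cytochrome P450 enzymes oxidise hormones, phenolics, terpenoids and other small molecules. Of 92 tested members 9 were called higher and 17 lower in females, above the shares over all transcripts in both directions, and 3 and 7 of them recurred under ambient UV-B. The most abundant, Potri.019G130700.1, had 236 counts in females and 642 in males (-1.48, interval -1.70 to -1.26). Potri.014G037900.1 had 171 counts in females and 647 in males under reduced UV-B (-1.96, interval -2.21 to -1.71), and 5 and 628 under ambient UV-B. Higher in females were Potri.001G083900.1, with 586 counts in females and 233 in males (1.29, interval 1.07 to 1.52), and Potri.003G146800.1, with 96 and 21 (2.16, interval 1.46 to 2.91) and 255 and 41 under ambient UV-B. Potri.007G084800.1 had 17 counts in females and 0 in males, while Potri.007G084400.1, near it by identifier, lay among the lowest ratios.

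**Figure D4:**
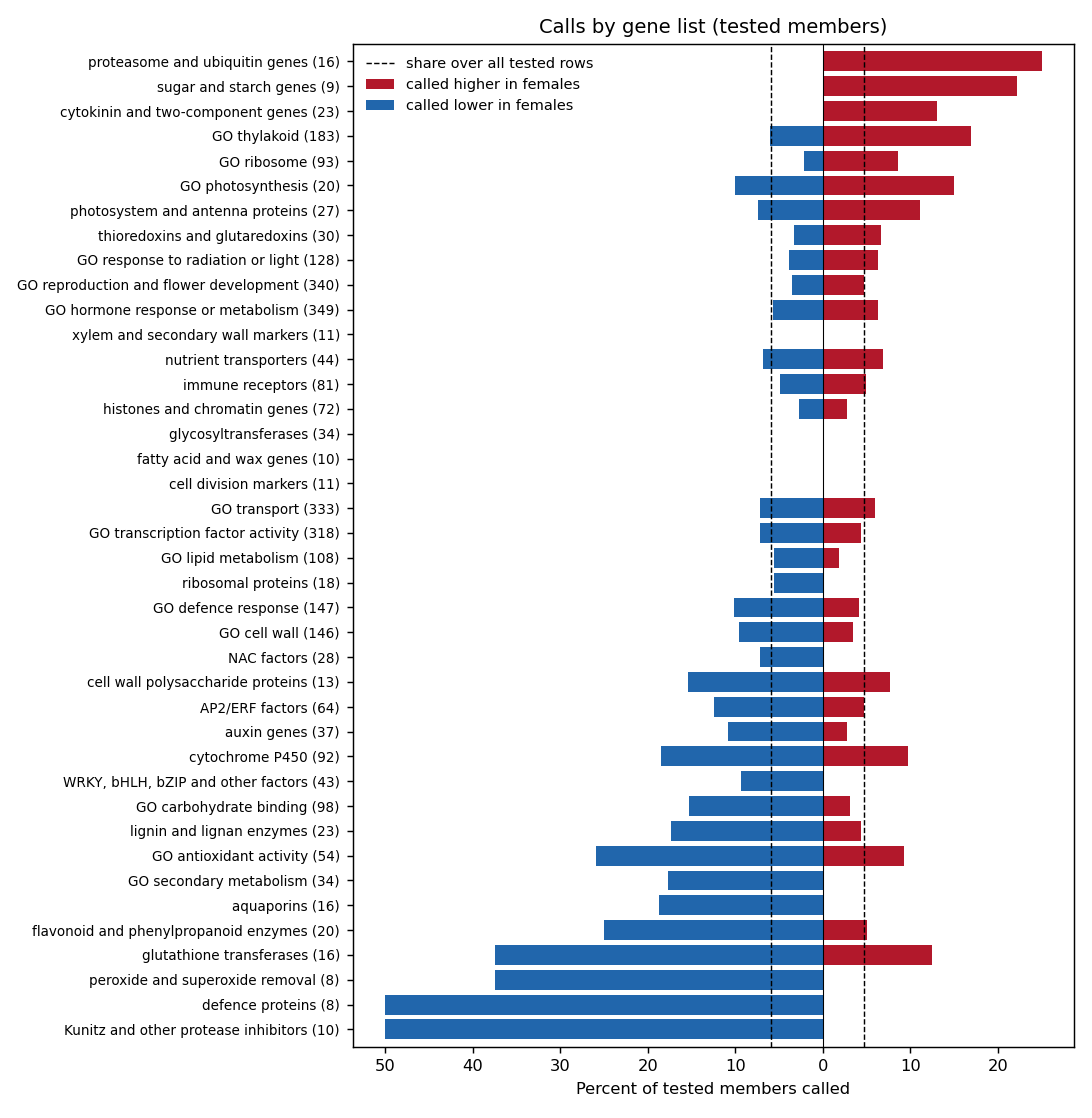
Percent of tested members called higher in females (right, red) and lower in females (left, blue) under reduced UV-B for each gene list with at least 8 tested members, number in brackets. Dashed lines give the shares over all tested transcripts, 4.66% higher and 5.9% lower. Protease inhibitors, with 5 of 10 lower, and defence proteins, with 4 of 8, stand at the bottom, and proteasome and ubiquitin genes, with 4 of 16 higher, at the top.

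Hormone-related genes differed one by one. In the cytokinin and two-component list 3 of 23 members were called higher in females and 0 lower. Under ambient UV-B 1 was called higher and 2 lower, and 1 of the 3 recurred. Cytokinin oxidase (Potri.002G030500.1), which degrades cytokinin, had 2907 counts in females and 1323 in males (1.10, interval 1.0 to 1.19), and 2034 and 777 under ambient UV-B. Type-A response regulators are induced by cytokinin and dampen its signal. Potri.008G193000.1 of this class had 124 counts in females and 18 in males (2.75, interval 2.03 to 3.55), and 89 and 53 under ambient UV-B. Potri.006G041100.1 had 76 counts in females and 25 in males under reduced UV-B, and 54 and 103 under ambient UV-B, so that its order turned without a call there. Auxin genes had 1 of 37 called higher (2.7%) and 4 lower (10.8%), beside 4.66% and 5.9% over all transcripts. Their median log2 ratio was -0.42. An auxin influx carrier component (Potri.005G174000.1) had 3 counts in females and 51 in males, and a GH3 family protein (Potri.009G092900.1), of enzymes that conjugate auxin or jasmonate to amino acids, had 3 and 38. SAUR proteins, small auxin-induced growth regulators, lay on both sides. Potri.005G096400.1 had 46 counts in females and 154 in males (-1.78, interval -2.29 to -1.30), and Potri.001G306300.1 had 103 and 26 (1.95, interval 1.32 to 2.63). Allene oxide synthase (Potri.002G130700.1), which makes a jasmonate precursor, had 27 counts in females and 109 in males (-2.05, interval -2.71 to -1.43), and 21 and 180 under ambient UV-B. Of 6 tested gibberellin genes 0 were called.

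Transcription factors of the AP2/ERF family, many of them regulators of ethylene and stress responses, had 3 of 64 members called higher (4.69%) and 8 lower (12.5%) in females. The higher share was close to the 4.66% over all transcripts, and the lower one stood beside 5.9%. Of the called members, 1 and 7 recurred under ambient UV-B, and the median log2 ratio of the family was -0.47. Potri.010G129200.1 had 63 counts in females and 281 in males (-2.19, interval -2.61 to -1.79), and 93 and 349 under ambient UV-B. Potri.011G115600.1 had 67 counts in females and 185 in males (-1.5, interval -1.93 to -1.09), and 79 and 226 under ambient UV-B. Among the higher ones, Potri.005G077300.1 had 212 counts in females and 87 in males (1.25, interval 0.88 to 1.62) but 107 and 105 under ambient UV-B. NAC factors had 2 of 28 called lower (7.14%), near the 5.9% over all transcripts, and 0 higher, and neither recurred. Potri.019G031400.1 had 14 counts in females and 101 in males under reduced UV-B, and 27 and 33 under ambient UV-B. WRKY transcription factor 18 (Potri.003G169100.1), of a family known from immune responses, had 16 counts in females and 67 in males (-2.10, interval -2.99 to -1.30). The homeodomain-leucine zipper protein HAT14-like (Potri.006G193700.1) had 45 and 106 (-1.27, interval -1.81 to -0.76). The 5 tested MADS-box transcripts, a family that includes floral regulators, had 0 calls. The most abundant of them, Potri.002G105600.1, had 409 counts in females and 359 in males.

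Nutrient transporters had 3 of 44 members called higher and 3 lower in females, near the shares over all transcripts, with large single differences. The ammonium transporter Potri.008G173800.1 had 560 counts in females and 75 in males (2.86, interval 2.51 to 3.23), and 569 and 159 under ambient UV-B. Among 7 tested ammonium transporters it was 1 of 2 higher in females. The other, Potri.009G045200.1, had 188 counts in females and 85 in males (1.11, interval 0.73 to 1.5). Potri.010G063500.1, also an ammonium transporter, was lower, with 109 and 235 (-1.15, interval -1.49 to -0.81). All 3 kept their direction with a call under ambient UV-B. A nitrate transporter of the peptide symporter type (Potri.014G157400.1) had 89 counts in females and 16 in males (2.44, interval 1.66 to 3.31), and 67 and 5 under ambient UV-B. The remaining called members of the list were a pair of phosphate transporters, both lower in females. Potri.002G005500.1 had 8 counts in females and 165 in males (-4.40, interval -5.64 to -3.39), and 11 and 132 under ambient UV-B, while Potri.005G256100.1 had 53 and 151 under reduced UV-B and 108 and 91 under ambient UV-B. A ZIP transporter (Potri.001G366100.1), of a family that imports zinc and iron, had 13 counts in females and 261 in males (-4.36, interval -5.29 to -3.56), and 18 and 410 under ambient UV-B. Aquaporins, the water channels, had 0 of 16 called higher and 3 lower. The plasma membrane type Potri.009G013900.1 had 45 counts in females and 237 in males (-2.43, interval -2.93 to -1.97), and 50 and 285 under ambient UV-B.

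Chloroplast transcripts were called on both sides. Of the 27 photosystem and antenna transcripts by description, 3 were called higher in females (11.1%) and 2 lower (7.41%), with a median log2 ratio of -0.14. Under ambient UV-B 0 were called higher and 4 lower, and they summed to 6950 CPM in females and 8686 CPM in males. Of 183 transcripts with an ontology term for the thylakoids, the membranes of the light reactions, 31 were called higher in females (16.9%) and 11 lower (6.01%), beside 4.66% and 5.9% over all transcripts. They summed to 30104 CPM in females and 22990 CPM in males, and their median log2 ratio was 0.22. Under ambient UV-B 11 were called higher and 18 lower, and 7 of the 31 recurred. Most were abundant, 131 of the 183 having at least 50 counts over the 4 libraries. Of all tested transcripts with 50 to 200 counts in the reduced pair, 10.3% were called higher and 11.9% lower. With 200 to 1000 counts these shares were 11.9% and 14.3%. With the assumed coefficient of variation of 0.3, 0 of the 183 were called higher and 1 lower. Plastocyanin A (Potri.005G246100.1), the copper protein that carries electrons to photosystem I, had 3017 counts in females and 1202 in males (1.29, interval 1.19 to 1.39), and 2908 and 1955 under ambient UV-B. Antenna protein Lhcb4 (Potri.006G099500.1), which links the photosystem II core to its outer antenna, had 2845 counts in females and 1322 in males (1.07, interval 0.97 to 1.16), and 2262 and 1446 under ambient UV-B. The other antenna proteins were mixed. Of 16 tested light-harvesting proteins, a list drawn up after the values were seen, 1 was called higher and 1 lower. Lhca3 (Potri.014G172400.1) had 9324 counts in females and 5837 in males (0.64), an Lhcb2 transcript (Potri.002G221400.1) had 4965 and 8209 (-0.76), and an Lhcb1 transcript (Potri.005G239300.1) had 5852 and 6631, all without a call. Among the largest differences in CPM were 4 abundant thylakoid transcripts without a description. They are Potri.011G142200.1, with 12162 counts in females and 5161 in males (1.20, interval 1.15 to 1.25), Potri.001G471900.1 with 6205 and 2413 (1.33, interval 1.26 to 1.39), Potri.001G256900.1 with 5886 and 2478 and Potri.002G016000.1 with 4613 and 1755. Ontology terms place the first in photosystem II and the second in photosystem I. The large subunit of Rubisco (Potri.T005800.1), the carbon-fixing enzyme, had 607 counts in females and 246 in males (1.27, interval 1.05 to 1.49), and 368 and 102 under ambient UV-B. Plants keep this gene in the plastid genome, whose messages oligo-dT catches only in part. Over 42 tested transcripts with an organelle-encoded best hit, a list added after the data were seen, 3 were called higher and 6 lower in females, with a median log2 ratio of -0.33.

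Cell wall proteins had 1 of 13 members called higher (7.69%) and 2 lower (15.4%), beside 4.66% and 5.9% over all transcripts. One cellulose synthase (Potri.002G066600.1) had 93 counts in females and 42 in males (1.11, interval 0.57 to 1.67), and another (Potri.011G069600.1) had 13 and 49. The most abundant member, a pectinesterase-2 precursor (Potri.014G149700.1), which removes methyl groups from pectin, had 15133 counts in females and 9582 in males (0.62, interval 0.59 to 0.66) without a call. Under ambient UV-B the order was turned, with 8872 and 15347 counts. Cell division markers had 0 of 11 called, with a median log2 ratio of 0.48.

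Proteasome and ubiquitin genes, of the system that marks proteins and breaks them down, had 4 of 16 called higher in females and 0 lower. Of the 4, 3 recurred under ambient UV-B. Ubiquitin extension proteins made up 3 of the 4. Besides Potri.001G025300.1 these were Potri.012G024300.1, with 152 counts in females and 63 in males (1.23, interval 0.80 to 1.68), and Potri.015G111500.1, with 68 and 23 (1.53, interval 0.83 to 2.28). Tags of such near-identical genes can be exchanged. The fourth is a COP1-like ubiquitin ligase (Potri.012G140200.1), of the kind that represses light responses in Arabidopsis. It had 23 counts in females and 0 in males, and 18 and 0 under ambient UV-B. A second COP1-like transcript (Potri.015G143200.1) had 10 and 5 counts, and phytochrome B2 (Potri.010G145900.2) had 75 and 42, both without a call.

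Histones and chromatin genes had 2 of 72 called higher and 2 lower, each 2.78%, below the 4.66% and 5.9% over all transcripts. Of the 72, 49 had a ratio above 1, and the median log2 ratio was 0.48. Under ambient UV-B 3 were called higher and 5 lower, and the median log2 ratio was -0.04. A histone H4-like transcript (Potri.007G013300.1) had 442 counts in females and 186 in males (1.21, interval 0.96 to 1.47), and 278 and 339 under ambient UV-B. A histone acetyltransferase (Potri.017G047600.2) had 246 counts in females and 488 in males (-1.02, interval -1.25 to -0.80). Of 18 ribosomal proteins by description, 16 had a ratio below 1 and 1 was called lower, ribosomal protein L16 (Potri.013G140500.1) with 484 counts in females and 1119 in males (-1.25, interval -1.40 to -1.09). By ontology term 8 of 93 ribosome transcripts were called higher and 2 lower. In the small sugar and starch list 2 of 9 were called higher and 0 lower, an alpha-amylase (Potri.017G093200.1) with 88 counts in females and 33 in males and a beta-fructofuranosidase (Potri.013G006600.2) with 33 and 2.

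No member was called under reduced UV-B among 34 glycosyltransferases, 10 fatty acid and wax genes or 4 MYB factors. Under ambient UV-B 5 of the 34 glycosyltransferases were called lower in females.

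Among called transcripts lower in females, the largest difference in CPM was that of Potri.018G014800.1, which has no description and which an ontology term ties to endopeptidase activity. It had 28 counts in females and 3076 in males under reduced UV-B, and 191 and 3196 under ambient UV-B, with a log2 ratio of -6.82 (interval -7.41 to -6.28). Potri.016G116800.1 had 98 counts in females and 2068 in males (-4.44, interval -4.74 to -4.14), and 102 and 1396 under ambient UV-B. Potri.T131500.1 had 840 and 2878 under reduced UV-B (-1.81, interval -1.93 to -1.70) and 142 and 5534 under ambient UV-B. On the higher side Potri.T012700.1 had 2844 counts in females and 643 in males (2.11, interval 1.98 to 2.23), and 1819 and 803 under ambient UV-B. Each of the 4 was called in the same direction under ambient UV-B.

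Some transcripts were listed in a single sex. With at least 10 counts in the other library, 149 of the 10741 tested transcripts were at 0 in males and 185 at 0 in females, of which 69 and 108 were called. The median count in the other library was only 13 for the 149 and 14 for the 185. Under ambient UV-B 79 of the 149 were again at 0 in males and 94 of the 185 again at 0 in females, and 41 and 53 of these again had at least 10 counts in the other sex. Zeros were common there: of all 19100 listed transcripts, 7001 were at 0 in males and 5948 in females. Potri.T020000.1 had 328 counts in females and 0 in males, at least 107-fold higher, and 681 and 0 under ambient UV-B. Potri.015G062500.1, with a thylakoid term, had 0 counts in females and 134 in males, at least 45.8-fold lower in females, and 0 and 101 under ambient UV-B. Potri.017G034500.1 had 0 and 340, at least 116-fold lower, and 15 and 462 under ambient UV-B. These transcripts were chosen after their values were seen.

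By the chromosome number in the identifiers, 6.96% (chromosome 8) to 14.3% (chromosome 7) of tested transcripts were called, beside 10.6% over all. On chromosome 19, which carries the sex-linked region in several poplars, 36 of 284 were called, 15 higher in females and 21 lower, or 12.7% (exact binomial 95% interval 9.04% to 17.1%). Unplaced scaffolds had the highest share, 18.9% of 212 (interval 13.8% to 24.8%), with 13 higher and 27 lower. The share on chromosome 19 lay inside the range of the other chromosomes. These intervals treat transcripts as independent, which neighbouring family members are not.

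**Figure D5:**
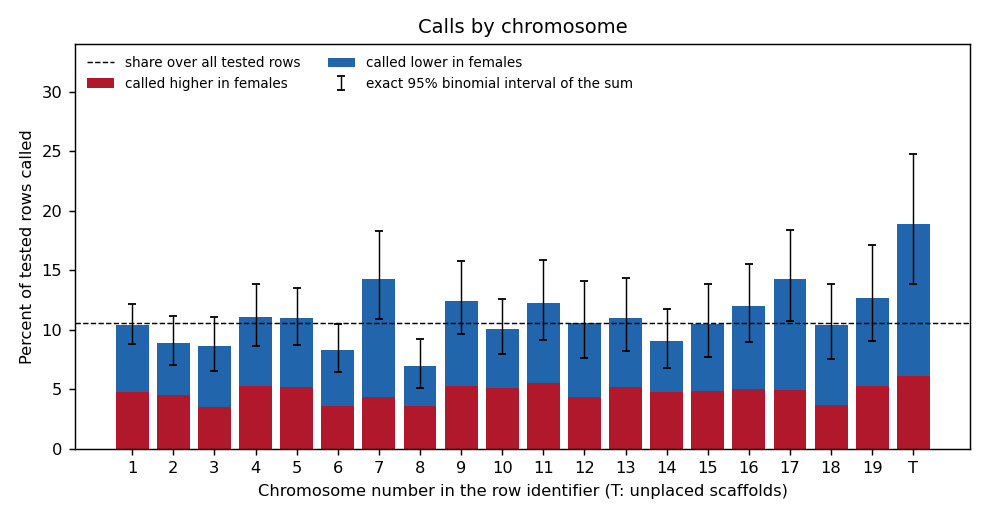
Percent of tested transcripts called higher (red) and lower (blue) in females under reduced UV-B by the chromosome number in the identifier, T being unplaced scaffolds. Error bars are exact 95% binomial intervals of the sum, and the dashed line is the 10.6% over all tested transcripts.

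A last comparison put the 4 libraries into a single fit with sex and UV-B level as terms, which leaves 1 residual degree of freedom per transcript. The edgeR quasi-likelihood test of the sex term called 219 transcripts higher in females (2.04%) and 328 lower (3.05%), 5.09% in all, at an adjusted p below 0.05, and these included 194 of the 500 and 296 of the 634 called under reduced UV-B. The count rests on the setting. Without TMM factors the same test called 0 and 0, with 591 and 943 at an unadjusted p below 0.05, and its newer form also 0 and 0, with 836 and 988. The edgeR likelihood ratio test, added after the data were seen, called 550 higher (5.12%) and 686 lower (6.39%), including 306 of the 500 and 426 of the 634. DESeq2's Wald test called 88 and 141.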

How the data were processed

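Tag counts came from 4 libraries of 1 sex and 1 UV-B level each, made with NlaIII and MmeI so that a transcript yields a 17 bp tag, per the labels' protocols. The authors deposited raw counts for each transcript and wrote the library total beside its column name, per the file headers. The deposited values headed TPM are CPM on those totals, since 100% were matched within 0.005 from the counts. The aligner, the genome build and the assignment of tags were not given in the sources used here.

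Only the counts were analysed, with Python 3.11.15 and scipy 1.17.1. Transcripts with at least 10 counts over the 4 libraries were tested with an exact two-sided conditional binomial test on the header totals, adjusted by Benjamini-Hochberg over all 10741. The UV-B difference of the sex ratio used an exact noncentral hypergeometric test of the 4 counts. Ratios carry exact 95% conditional intervals, which cover counting error only, since PCR copies of tags are not independent molecules. A transcript at 0 is given as a bound against 3 counts, that is 0.683 CPM in females and 0.701 CPM in males under reduced UV-B. Sex over both UV-B levels was tested with edgeR 4.0.16 and DESeq2 1.42.0 under R 4.3.3. List medians add 0.5 to each count. The tests were first run on simulated counts, where the quasi-likelihood test did not recover the changes put in and the likelihood ratio test also called some unchanged transcripts.

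The comparison, the lists, which are word patterns on descriptions or ontology terms, and the rules were chosen with earlier results of these data known. The naming rule took, among called transcripts, the 12 highest and 12 lowest ratios with a description and at least 50 counts, the 5 largest CPM differences per direction, up to 2 called members per list and direction, and, called or not, each list's most abundant member. It gave 112 transcripts, of which 81 were called, with adjusted p up to 0.000188. The 41 further transcripts in the text were chosen after their values were seen. Alternatives were TMM and DESeq2 size factors, the listed sum as total, other minima, a 4-fold limit and an assumed coefficient of variation of 0.3. The DNA repair, phloem, flower and ADP binding lists had 0 tested members.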

Additional observations from a re-analysis of the deposited data

Results flagged for a closer look

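For 32 transcripts named by the rule or in the text, the ratio of females to males differed between reduced and ambient UV-B by an exact conditional test of the 4 counts, with the largest adjusted p at 0.000346 and at least a 2-fold difference between the ratios. Over all tested transcripts 217 had a higher ratio under reduced UV-B (2.02%) and 111 a lower one (1.03%). Values below are log2 ratios of ratios, reduced over ambient. The test covers counting error only, and 26 of the 32 were also called with TMM factors, the exceptions being Potri.019G124600.1, Potri.001G136600.1, Potri.001G256900.1, Potri.005G077300.1, Potri.008G173800.1 and Potri.013G004100.1. All of these exceptions had a higher ratio under reduced UV-B.

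Among transcripts lower in females under reduced UV-B, the difference was narrower under ambient UV-B for the Kunitz-type inhibitor Potri.001G309900.1 (-5.07), the benzoyltransferase-like Potri.007G003800.1 (-1.49), the NAC factor Potri.019G031400.1 (-2.56), GSTF4 Potri.T035400.1 (-1.12), ribosomal protein L16 Potri.013G140500.1 (-1.01) and the endopeptidase-term transcript Potri.018G014800.1 (-2.71). Potri.005G139000.1, without a description, had 327 counts in females and 1898 in males under reduced UV-B, and 2475 and 3761 under ambient UV-B (-1.93). The ratio lay on the other side of 1 under ambient UV-B for GSTU20 Potri.008G175000.1 (-8.33), the RNA-dependent RNA polymerase Potri.006G253500.1 (-7.26), the P450 Potri.001G270600.1 (-3.24) and the phosphate transporter Potri.005G256100.1 (-1.75). Ribosomal protein S7 (Potri.013G138900.1), not called under reduced UV-B, had 631 counts in females and 897 in males, and 324 and 223 under ambient UV-B (-1.04).

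The difference was wider under ambient UV-B for the Kunitz-type inhibitors Potri.019G124400.2 (3.99) and Potri.019G124600.1 (1.12), the P450 Potri.014G037900.1 (5.06), the undescribed Potri.T131500.1 (3.51), the histone acetyltransferase Potri.017G047600.2 (1.32), the 2-cys peroxiredoxin Potri.016G072100.1 (1.21), the shikimate enzyme Potri.002G099200.1 (1.59) and S-adenosylmethionine synthetase 2 Potri.013G004100.1 (1.06). Potri.006G142600.1, with an antioxidant ontology term, had 456 counts in females and 1778 in males under reduced UV-B, and 14 and 255 under ambient UV-B (2.23).

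Among transcripts higher in females under reduced UV-B, the difference was smaller or turned under ambient UV-B for the type-A response regulators Potri.008G193000.1 (2.04) and Potri.006G041100.1 (2.54), the ammonium transporter Potri.008G173800.1 (1.06), the histone H4-like Potri.007G013300.1 (1.54), the ubiquitin extension protein Potri.012G024300.1 (1.49), the AP2/ERF factor Potri.005G077300.1 (1.26) and the thylakoid transcript Potri.001G256900.1 (1.08). A P450 (Potri.016G031800.1) had 213 counts in females and 73 in males under reduced UV-B, and 135 and 171 under ambient UV-B (1.89). Without a call under reduced UV-B, the ratio differed for the polyphenol oxidase Potri.011G108300.1 (5.82), the pectinesterase-2 precursor Potri.014G149700.1 (1.45) and Potri.001G136600.1 with a lipid metabolism term (1.07), which had 984 counts in females and 506 in males under reduced UV-B, and 867 and 935 under ambient UV-B.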

How the results depend on the processing

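Within a UV-B level no pairing of plants or libraries was possible, because each group has 1 library and the labels give no replicate numbers. The fit over both UV-B levels sets the sexes side by side within each level. No library could be left out of a pair. Under reduced UV-B the counts of calls stayed within 1.5 times of 500 higher and 634 lower with TMM factors, DESeq2 size factors, the sum of the listed transcripts as total, no filter and a minimum of 50 counts. A 4-fold limit left 206 higher and 380 lower under reduced UV-B, 209 and 470 under ambient UV-B, and 70 and 172 at both levels. Pools taken to vary with a coefficient of variation of 0.3 left 28 and 57, 46 and 77, and 16 and 33. With the listed sum as total, ambient UV-B had 599 higher. For sex over both UV-B levels, against 219 higher and 328 lower, header totals without TMM factors gave 0 and 0, no filter 430 and 554, DESeq2's Wald test 88 and 141, and, chosen after seeing the data, the likelihood ratio test 550 and 686 and the newer quasi-likelihood form 0 and 0. The cause was not tested. A minimum of 50 counts in the other library left 8 transcripts at 0 in males and 13 at 0 in females. Of 153 named transcripts, 152 kept their direction and call with TMM factors and with size factors and 1 gained a call. With the assumed variation 91 lost theirs. Of 98 list counts, 65 moved with that assumption, 8 with the minimum of 50 counts, 1 with size factors and 0 with TMM factors. Depth limits calls among transcripts of few counts, and with single pooled libraries the spread between plants was not measured.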

Other observations

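Heat shock proteins and chaperones had 1 of 7 members called lower and 0 higher in females under reduced UV-B. The called one, a DnaJ-type co-chaperone (Potri.018G034600.1), had 0 counts in females and 28 in males, and 0 and 21 under ambient UV-B. A ClpB-like chaperone (Potri.018G097300.1), of a family that untangles aggregated proteins, had 58 counts in females and 43 in males without a call. WRKY, bHLH, bZIP and other transcription factors had 4 of 43 called lower and 0 higher, where 5.9% and 4.66% of all tested transcripts were. Among them a bHLH71 factor (Potri.003G093200.1) had 11 counts in females and 60 in males, and 0 and 20 under ambient UV-B.

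Transcripts of the photosystem II protein D2, a core subunit that binds the reaction centre pigments, lay on both sides. Potri.013G081000.1 had 170 counts in females and 80 in males (1.05), and Potri.006G141600.1 had 3 and 25 (-3.10), so that copies of this plastid-type gene were called in opposite directions under reduced UV-B. Their tags may be shared.

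Broad ontology groups overlap the lists above and one another, and their counts stand beside 4.66% higher and 5.9% lower over all transcripts. Defence response had 6 of 147 higher (4.08%) and 15 lower (10.2%) in females, and cell wall 5 of 146 (3.42%) and 14 (9.59%). Lipid metabolism had 2 of 108 (1.85%) and 6 (5.56%), and reproduction and flower development 16 of 340 (4.71%) and 12 (3.53%). Response to radiation or light had 8 of 128 higher (6.25%) and 5 lower (3.91%) under reduced UV-B, and 0 higher and 8 lower under ambient UV-B.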
